A study of Ananas comosus with 3 samples.

Results

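The GAST-like transcripts on the pineapple array were those of contig 35, a group of 12 cDNA clones out of the 9278 cDNA elements spotted. GAST-like genes, also called GASA or snakin genes, encode small secreted proteins rich in cysteine whose prototype was found in tomato as a gibberellin-stimulated transcript. Gibberellins are hormones that promote cell elongation and growth, and members of the family have been linked to cell expansion and redox balance in Arabidopsis and to defence in potato. In strawberry, a member of the family is expressed in the fruit receptacle, and raised expression of it restrains growth.

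Members were chosen as the elements numbered contig 35 or carrying a GAST or gibberellin-stimulated gene name. No element met either condition in the files of all spots. All 12 came from the files of spots that had passed the study's 2xSD test, where clones sequenced later received contig numbers. The paper does not state which value that test was applied to. The GAST-like name comes from the study's annotation of the contig, since the files call all 12 clones unsequenced, and no sequence of them was used here. The name therefore could not be checked against the data. Clones were sequenced after passing the 2xSD test and the study's limits on p-value and change on these same slides. Their ratios are therefore given as a description with no test.

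Fruit was field grown pineapple, Smooth Cayenne Clone C10, and RNA was taken from flesh around the middle of fruits at the mature green or the mature yellow stage. Both stages were hybridized together on each of 3 slides, with mature yellow fruits in Cy3 on replicates 1 and 3 and in Cy5 on replicate 2, the dye swap. The sources do not say which slides are separate fruits and which repeat one RNA, so the SDs may be technical. The array also carries clones from root and nematode gall libraries, and no source says from which library a contig 35 clone came. In bulk flesh, fewer cells of a type and less RNA per cell cannot be told apart.

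Across the array, 10 of 7773 features, a feature being a contig or an element without one, were called changed by limma, or 0.129%, where a call needed a 1.5-fold difference and an adjusted p below 0.05. Element spots numbered 18556 on each slide. The median element spot exceeded its local background by 27.9 to 67.0 intensity units in the channel of mature yellow fruits and by 15.8 to 116 in that of mature green fruits. As markers of the flesh, 3 features carried the gene name fruit bromelain, the cysteine protease of pineapple flesh. Contig 122, which the paper also names a fruit bromelain, carried no gene name and was not among these 3. All 3 had means below 0 in yellow over green, where the median of all features was 0.01. A ratio between stages cannot show which tissue was sampled. Contig 123 at -0.25 ± 0.23 and contig 2985 at -0.06 ± 0.08 (SD, n = 3 each) were not called. Contig 3033 was called, at a log2 ratio of -3.57 ± 0.37 (SD, n = 3, adjusted p = 0.0460 in limma). Of its 10 elements, 9 were newly numbered and so chosen for their change on these slides, and the p is no independent evidence. No feature carried the chosen names for chlorophyll-binding, photosystem or small Rubisco proteins.

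Contig 35 as a whole was lower in mature yellow fruits. The mean log2 ratio of its clones, yellow over green, was -2.10 on replicate 1, -2.43 on replicate 2 and -1.64 on replicate 3. The 3 slides lay on one side of 0, and their mean was -2.06 ± 0.40 (SD, n = 3), which is 4.17-fold lower. Only 18 of the 7773 features had a lower mean. Most features were not chosen for their change, as these clones were, so nothing is read from that rank. The other newly numbered elements had a median log2 ratio of -1.89. Over the clones of contig 35 the median, -1.53, was closer to 0 than the mean. A few clones with very low ratios pulled the mean down.

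The clones did not move as one. On average, 11 of the 12 clones were 1.5-fold or more lower and 1 was higher by that amount. Of all elements, 4.44% were lower and 4.66% higher by 1.5-fold. Among the other newly numbered elements, chosen by the study in the same way, 67.6% were lower and 26.9% higher, and nothing is read from the count of 11. All 11 lower clones were below 0 on every slide, where 18.3% of all elements were, and 10 were 1.5-fold or more lower on each slide. The exception was JBW006F08, with -0.40 on replicate 3. Over the 12 clones the mean log2 ratio had an SD of 1.71.

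**Figure D1:**
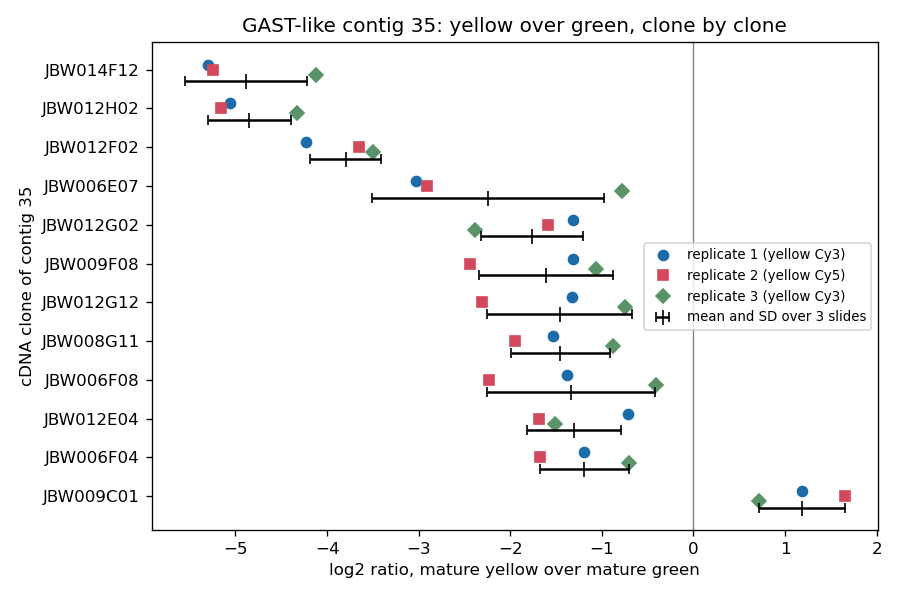
Log2 ratio of mature yellow over mature green fruits (x axis) for each of the 12 cDNA clones of contig 35 (y axis), with 1 symbol per slide and a bar for the mean and SD over 3 slides. The clones JBW014F12, JBW012H02 and JBW012F02 lie at -3.50 or lower on every slide, and JBW009C01 lies above 0 on every slide.

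The 3 lowest clones formed the far end of the range. JBW014F12 had log2 ratios of -5.30, -5.25 and -4.12 on replicates 1, 2 and 3. Its mean was -4.89 ± 0.67 (SD, n = 3), or 29.6-fold lower in mature yellow fruits, and 32 of 9275 measured elements lay lower. The clone was chosen for its change, so nothing is read from that rank. JBW012H02 gave -5.06, -5.16 and -4.33, with a mean of -4.85 ± 0.45 (SD, n = 3), 28.8-fold lower. These 2 clones differed in their means by less than the SD over slides of either. JBW012F02 gave -4.24, -3.66 and -3.50 and a mean of -3.80 ± 0.39 (SD, n = 3), 13.9-fold lower. On each slide its ratio was closer to 0 than those of JBW014F12 and JBW012H02. Averaged, the 3 clones had a log2 ratio of -4.51 ± 0.47 (SD over slides, n = 3), 22.8-fold lower.

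In these 3 clones the signal of mature green fruits was many times that of mature yellow fruits. For JBW012H02 the signal above local background in mature green fruits was 26016, 61455 and 5110 intensity units on replicates 1, 2 and 3, against 559, 815 and 199 in mature yellow fruits. Ranked by that channel, it was 19th, 16th and 82nd from the top among the elements of the 3 slides. JBW014F12 read 10900, 43286 and 4125 units in mature green and 216.5, 537 and 188 in mature yellow fruits. JBW012F02 read 20827, 32402.5 and 3336 in mature green and 810.5, 1277 and 252 in mature yellow fruits. In all 3 clones the green fruit signal was the higher one in either dye, since the dye swap did not turn the direction. Without normalization, the signal of JBW012H02 in mature green fruits was 46.5, 75.4 and 25.7 times that in mature yellow fruits. The brightest spot of contig 35, on replicate 2, had 64151 units before background was subtracted, close to the highest value on that slide, 65535.

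**Figure D2:**
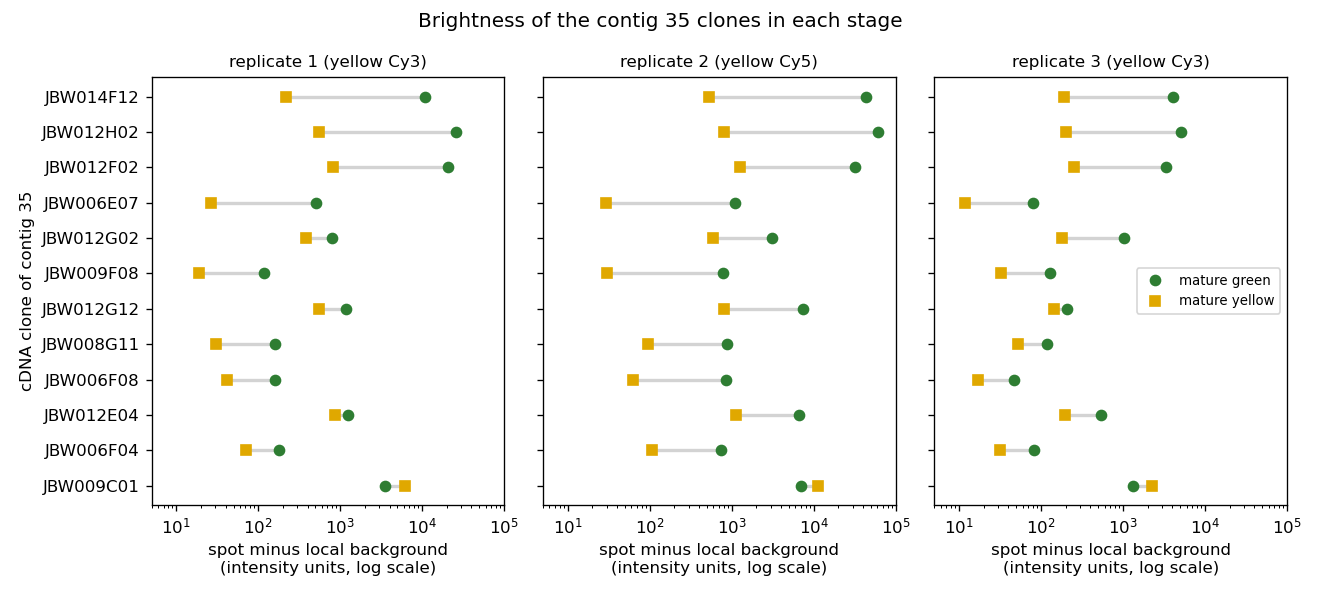
Spot intensity minus local background (x axis, log scale) in mature green and mature yellow fruits for each clone of contig 35 (y axis), with 1 panel per slide and the mean of duplicate spots as each point. Green fruit signal exceeds yellow fruit signal in 11 clones on every slide, and the order is reversed only in JBW009C01.

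JBW009C01 was the single clone higher in mature yellow fruits. Its log2 ratios were 1.18, 1.65 and 0.72, and the mean of 1.19 ± 0.47 (SD, n = 3) is 2.27-fold higher. It was also bright, with 6226.5, 11354 and 2277 intensity units in mature yellow and 3546, 7046.5 and 1330 in mature green fruits. The signal before normalization was 1.76, 1.61 and 1.71 times higher in mature yellow fruits, so the direction was the same in both dye orientations. Both of its spots passed the 2xSD test on all 3 slides. With this clone left out, a choice made after seeing the data, the contig's mean was -2.35. Whether this clone holds the same transcript as the others was not tested.

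The remaining 8 clones lay between. Their means ran from -2.24 to -1.19 and averaged -1.54 ± 0.52 (SD over slides, n = 3), which is 2.92-fold lower. That fold includes 5 dim clones whose ratios have only a bound, or none, under the stricter blank limit given with their values. By slide the average of these 8 was -1.48, -2.10 and -1.06, lowest on the dye swap. Of them, 3 exceeded the mean of the blank spots by 2 SD in mature yellow fruits on at least 2 slides, JBW012G02 on replicates 2 and 3 and the others on all 3. JBW012G02 gave log2 ratios of -1.32, -1.59 and -2.38, with 789.5, 3099 and 1016 intensity units in mature green and 381, 590.5 and 179 in mature yellow fruits. JBW012G12 gave -1.32, -2.31 and -0.75, with 1194.5, 7346 and 205 units in mature green and 552, 806 and 145 in mature yellow fruits. JBW012E04 gave -0.72, -1.68 and -1.51, with 1233.5, 6613.5 and 537 units in mature green and 861.5, 1143 and 195 in mature yellow fruits. Their means, -1.76 ± 0.56, -1.46 ± 0.79 and -1.30 ± 0.52 (SD, n = 3 each), differed by less than those SDs.

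The other 5 clones were dim in mature yellow fruits. JBW006E07 had the lowest mean of them, -2.24 ± 1.27 (SD, n = 3), and the widest spread of all 12, with -3.03, -2.91 and -0.78 on the 3 slides. Its signal in mature yellow fruits was 26.5, 29.5 and 11.7 intensity units, against 506.5, 1114.5 and 79.1 in mature green fruits. Replicate 3, where its ratio was nearest to 0, was the slide on which both channels were weakest. JBW009F08 gave -1.32, -2.44 and -1.07, a mean of -1.61 ± 0.73 (SD, n = 3), and 19.0, 30.5 and 32.9 units in mature yellow against 117.5, 783 and 129 in mature green fruits. JBW008G11 gave -1.53, -1.95 and -0.88, a mean of -1.45 ± 0.54 (SD, n = 3), and 31.0, 95.0 and 52.0 units against 161, 869 and 118. In each of these clones the green fruit signal was the higher on every slide.

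JBW006F08 gave log2 ratios of -1.38, -2.23 and -0.40, a mean of -1.34 ± 0.91 (SD, n = 3), and 42.0, 63.0 and 17.0 units in mature yellow against 159.5, 864.5 and 46.5 in mature green fruits. JBW006F04 gave -1.20, -1.67 and -0.70, a mean of -1.19 ± 0.49 (SD, n = 3), and 71.5, 105.5 and 31.4 units against 177, 744 and 82.4. Among the 11 lower clones, JBW006F04 had the mean nearest to 0. By the paper, clones still unsequenced were sequenced only past its 1.5-fold limit. An unsequenced clone short of that limit in the study's own values could not become a member. Without background correction, JBW006F04 and JBW006F08 had means of -0.56 and -0.49, less than 1.5-fold lower.

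How far the dim clones fell depends on what counts as signal. All 72 spots of contig 35, in both channels, exceeded the blank spots of their slide by 2 robust SD. By the ordinary mean and 2 SD of the blank spots, 71 of 72 were above in the channel of mature green fruits. In that of mature yellow fruits 38 of 72 were. For mature yellow fruits this ordinary limit was 527, 373 and 75.0 units on replicates 1, 2 and 3. The robust limit was 9.90, 5.93 and 2.32 units. The median element spot of the array, at 31.0, 67.0 and 27.9 units in that channel, was also under the ordinary limit. Under that stricter limit the 5 dim clones were not well above background in mature yellow fruits on any slide, and their ratios have only a bound there. The lowest yellow fruit level above the limit on each slide was taken as the floor. Averaged over slides, JBW006E07 was then at least 1.48-fold lower and JBW008G11 at least 1.08-fold lower. On replicate 1 the green fruit level of JBW008G11, 7.98 in log2, was itself under the floor of 8.98, so that slide alone gives no fold. For JBW006F04, JBW006F08 and JBW009F08 no fold can be given in that way. JBW014F12 and JBW012G02 were below that limit in mature yellow fruits on replicate 1 alone, and the other 5 clones were above it on all 3 slides.

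Neighbouring spots were looked at because several bright green fruit signals lay close together. Of the 12 clones, 6 had a brighter spot in mature green fruits immediately before or after them in spot order on all 3 slides. The signal of the neighbour of JBW009F08, JBW009D08 of contig 124, was 13495, 54187 and 3291 units, 25.6 to 115 times that of the clone itself. The neighbour of JBW008G11, JBW008E11 of contig 122, was 18.8 to 68.6 times as bright as that clone. Its own log2 ratios were -5.03, -5.63 and -3.78, and the paper names its contig a fruit bromelain. For JBW006F04, JBW006F08 and JBW012G02 the neighbour was 5.07 to 8.81, 2.48 to 7.32 and 1.70 to 9.53 times as bright. JBW009D08 had log2 ratios of -5.19, -5.68 and -4.05. JBW012E02 of contig 3144, beside JBW012G02, had -1.46, -2.79 and -1.73. Beside the 2 JBW006 clones, the log2 ratios were -0.61, -1.44 and 0.47 for JBW006D04 and -0.07, 0.22 and -0.33 for JBW006D08. JBW012F02 and JBW012H02 of contig 35 were printed side by side, so each is the other's neighbour. The part of neighbouring spots in these ratios was not tested.

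Local background moved with brightness. Beside JBW012H02 it was 1185, 2116 and 316 units in the channel of mature green fruits, where the median element had 561, 574 and 255. That was the highest excess among the 12 clones, at 3.69 times the median on replicate 2. The part of this in the ratios was not tested.

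Duplicate spots agreed far more closely than clones did. Over the 36 pairs of duplicate spots, a pair being 1 clone on 1 slide, the median difference in log2 ratio was 0.09 and the widest 0.54, in JBW006F08 on replicate 1. Differences under 0.2 were found in 31 of the 36 pairs. The order of the clones was also partly kept from slide to slide. Over the 12 clones, Spearman's rho was 0.86 between replicates 1 and 2, 0.61 between 1 and 3 and 0.62 between 2 and 3, where all elements gave 0.21, 0.55 and 0.25. The points of such a correlation share the slides and their normalization. These clones were also chosen for their change on the same slides, while most elements were not. Nothing is therefore read from the difference between the clones and all elements.

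Slides differed in a similar way for most clones. The ratio of replicate 3 was the closest to 0 in 10 of the 12 clones, the exceptions being JBW012G02 and JBW012E04. Replicate 2 gave the lowest ratio in 7 of the 12. The files hold mean intensities for replicate 3 and medians for replicates 1 and 2, and replicate 2 is the dye swap. Replicates 1 and 3 share the dye orientation and differ in spot statistic. Replicates 1 and 2 share the spot statistic and differ in dye orientation. Slide therefore cannot be told apart from spot statistic in the first pair, nor from dye in the second.

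Spread between elements of a contig was compared over the 64 contigs with at least 5 elements. Contig 35 had the 5th highest SD, 1.71, where the median contig had 0.24. Its clones spanned 6.07 on the log2 scale, from JBW014F12 to JBW009C01, against a median span of 0.70. All 12 of them were newly numbered and so chosen for their change, while many of the other contigs held no such clone. Among contigs without a newly numbered clone the highest SD was 0.53, in contig 162. The spread is therefore not read as a trait of contig 35. Of the 64 contigs, 7 including contig 35 held elements 1.5-fold or more lower together with elements 1.5-fold or more higher. All 7 held newly numbered clones, which the study chose for their change.

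**Figure D3:**
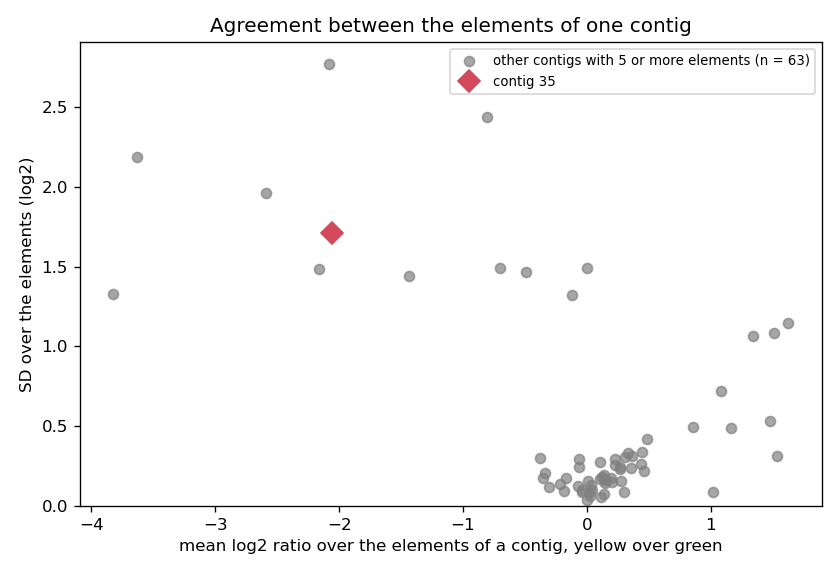
Mean log2 ratio of yellow over green over the elements of a contig (x axis) against the SD over those elements (y axis), with 1 point for each of the 64 contigs with at least 5 elements. Contig 35, the diamond, lies at a mean of -2.06 and an SD of 1.71, above the median SD of 0.24. All of its clones were chosen by the study for their change, unlike the elements of many other contigs.

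The clone names carry 5 prefixes, JBW006, JBW008, JBW009, JBW012 and JBW014, each shared with 91 to 95 other elements. These other elements had median log2 ratios between -0.30 and -0.02, and 20.2% to 34.7% of them were 1.5-fold or more lower, compared with 4.44% of all elements. Prefix JBW012 held 5 of the 12 clones, among them 2 of the 3 lowest, and JBW009 held both a lower and the higher clone. What a prefix stands for is not given in the sources used here.

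The deposited table of processed values lists contig 35 in 1 row, without saying which clones entered it. Its log2 ratios, turned to yellow over green with the dye swap taken into account, were -3.17, -2.98 and -3.14 on replicates 1, 2 and 3. The mean of these deposited values, -3.10 ± 0.10 (SD, n = 3), is 8.55-fold lower, against 4.17-fold lower from the scanner intensities. The direction of the columns was found by setting them beside the scanner values, because the file does not state it. The deposited values come from the same slides, and their direction was set by the scanner values. That both put contig 35 lower in mature yellow fruits is therefore no separate evidence. The size depended on which array values were used. Apart from the array, the paper measured the GAST-like transcript by quantitative real-time PCR on pooled fruit samples and reports a decrease with ripening. Those PCR measurements were not among the data used here.

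Background correction and scaling moved the contig's mean as well. Over 17 alternative settings it stayed below 0 and ran from -3.76, after scaling between slides, to -1.36, with no background correction. In the latter setting 9 instead of 11 clones were 1.5-fold or more lower. JBW009C01 was above 0 under each alternative, but by less than 1.5-fold with plain subtraction, at 0.48, and with the mean intensities of the 2xSD spots, at 0.42.

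**Figure D4:**
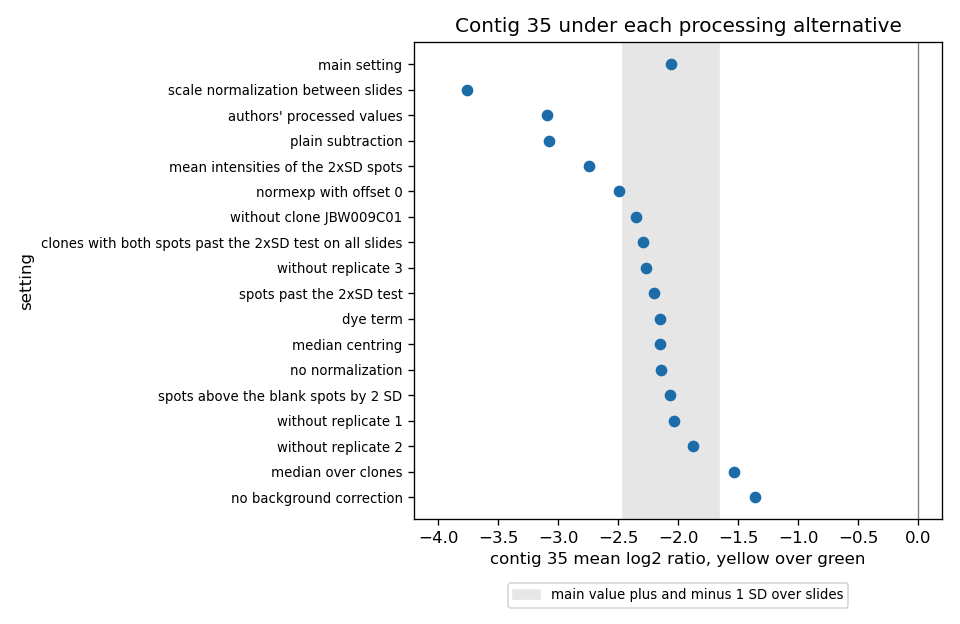
Mean log2 ratio of contig 35, yellow over green (x axis), in the main setting and under each of 17 alternatives (y axis), with 1 point per setting and a shaded band of 1 SD over slides, 0.40, on either side of the main value. All points lie below 0, between -3.76 and -1.36.

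Features whose slide values were most like those of contig 35 were found by the root mean square distance over the 3 slides among 7617 features. The closest was contig 3388, named putative (S)-2-hydroxy-acid oxidase, a peroxisomal enzyme family that includes glycolate oxidase, at a distance of 0.10 on the log2 scale. Its values were -2.15, -2.32 and -1.77, and its 7 elements had the highest SD of the 64 contigs, 2.77. JBW007B04, a clone with no gene name, was at 0.22. Contig 3144, named for RD22, a protein of the dehydration response in Arabidopsis, was at 0.26 and had 19 elements. Contig 3403, named for the MtN3 nodulins, a family that holds sugar transporters, was at 0.29, and contig 2942, of undiscovered sequence, at 0.35. A distance over 3 slides describes likeness of ratio only.

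Gene names chosen for gibberellin signalling matched few features. They matched 4, of which 3 were scarecrow-like regulators, which belong to the family of the DELLA repressors. The other was a protein that binds GAMYB, a transcription factor that acts downstream of gibberellin. None of the 4 was named as a DELLA repressor or an enzyme of gibberellin synthesis. Belonging to that family does not by itself place a gene in gibberellin signalling, so the list says little about that pathway. None of the 4 features was called by limma, and 0 of 4 had an unadjusted p under 0.05, where 696 of all 7773 features did. The list is too short to read anything from that count. Their median log2 ratio was 0.02, beside 0.01 for all features. Contig 2520, a putative SCARECROW regulator, was the one with the same sign on every slide, at 0.06, 0.02 and 0.07. These features lay near 0 on each slide.

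Small proteins rich in cysteine other than the GAST-like clones were represented by 2 metallothionein-like contigs, which bind metal ions. Neither was called by limma and 0 of 2 had an unadjusted p under 0.05, where 696 of all 7773 features did. Nothing is read from a count over so few features. Contig 182, from 49 elements, gave -0.34, -0.03 and -0.13, a mean of -0.17 ± 0.16 (SD, n = 3). Contig 180 gave -0.19, 0.63 and 0.88 and did not keep one sign.

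Genes of cell enlargement, the process in which GAST-like genes are studied in other plants, numbered 6 features. They were expansins, which loosen cell walls, a xyloglucan endotransglycosylase, which remodels them, and water channels. No feature of the 6 was called by limma, and 3 means were above 0 and 3 below. An unadjusted p under 0.05 was found for 1 of the 6, where 696 of all 7773 features had one, and nothing is read from that count. The 1 feature was contig 2337, a water channel of the plasma membrane, at -0.45, -0.38 and -0.07, a mean of -0.30 ± 0.20 (SD, n = 3, adjusted p = 0.541 in limma). Contig 18, the xyloglucan endotransglycosylase of pineapple, gave 0.18, 0.15 and 0.04. None of the 6 reached 1.5-fold in either direction.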

How the data were processed

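For each spot the authors deposited the intensity in either channel and in the local background, without correction or normalization, as medians for replicates 1 and 2 and means for replicate 3. For spots past the 2xSD test the authors deposited mean intensities with added contig numbers. A table of processed values, which the authors deposited as a signed score (a ratio at or above 1, otherwise minus its reciprocal), has one row per contig.

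Computation used R 4.3.3 with limma 3.58.1, and figures used matplotlib 3.10.9 in Python 3.11.15. Abnormal spots (318, 308 and 547) were left out. Background was corrected by normexp (offset 50). Loess was applied within slides, and ratios were turned to log2 yellow over green. Duplicate spots, then elements of a contig, were averaged, and features on at least 2 slides were tested by limma with Benjamini-Hochberg adjustment. The procedure was tested on simulated data. Floors for bounds used levels after loess, without scaling between slides. Slide and replicate are the same. With 3 slides there cannot be an exact two-sided sign permutation p under 0.25. Columns of values per sample not used numbered 0. Members, lists and tests were chosen with earlier results of these data known. Features named were contig 35, its clones and the 5 features nearest to it. From each list, those called were named, or else the 2 with the largest mean and one sign on all slides. Named besides were the flesh markers, brighter neighbours of the clones, contig 162 for its spread and contig 180, which kept no one sign. Names holding the letters of thionin were matched as whole words, because the letters alone also matched methionine enzymes, which gave 9 features and 0 calls.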

Additional observations from a re-analysis of the deposited data

How the results depend on the processing

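Limma called 10 features over the whole array. The count was 34 with a normexp offset of 0, 59 with plain subtraction, 18 without background correction, 6 with median centring, 26 without normalization and 110 over spots past the 2xSD test. With spots kept only where they exceeded blanks by 2 SD it was 92. It was 63 with a dye term, 222 with each element as a feature, 136 from the authors' processed values and 227, chosen after seeing the data, with contig numbers of the full files only. Scaling between slides left 0 calls in limma, with 40 features at an unadjusted p under 0.05. Leaving out each replicate gave 0 to 5 calls, 0 without replicate 1 (362 at an unadjusted p under 0.05), 0 without replicate 2 (917) and 5 without replicate 3. The cause was not tested. The 3 gene lists had 0 calls in limma with each element as a feature and over spots past the 2xSD test.

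The mean of contig 35 kept its sign in all 17 settings. It moved by more than the SD over slides in 7, to -2.49 with a normexp offset of 0, -3.07 with plain subtraction, -1.36 without background correction, -3.76 after scaling, -3.10 in the authors' values and, both chosen after seeing the data, -1.53 as a median over clones and -2.75 from mean intensities of the 2xSD spots. Leaving out each replicate gave -2.27 to -1.87. The 12 clones kept their signs in all 156 values over 13 settings, of which 36 moved by more than the SD over slides. Each slide's ratio already pairs both stages, and with 1 group no further replicate block could be fitted. The offset pulls ratios of dim clones toward 0, and 3 slides limit the precision.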
